A study of Mus musculus with 4 samples.

Results

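The TRIM genes encode a large family of ubiquitin ligases, named for a tripartite motif of a RING finger, B-boxes and a coiled coil. The members described here are the 67 protein-coding genes on the primary chromosomes whose mouse symbol is Trim followed by a digit, out of 32617 genes in the table of estimated counts. They lie on 15 chromosomes, with 16 members on chromosome 7 and 11 on chromosome 11. Messenger RNA was sequenced in 4 libraries of macrophages grown from mouse blood monocytes. Peptide-treated CAM (2 libraries) were classically activated macrophages that also received mML56, a peptide that mimics the soluble form of the adhesion protein Ninj1. CAM (1 library) had been activated by LPS (500 ng/ml), a component of bacterial walls, together with 20 ng/ml IFNγ. M-CSF macrophages (1 library) had the growth factor alone, and all groups share the culture of 6 or 7 days with 30 ng/ml M-CSF. The cells were CD11b-selected monocytes from pooled blood of C57BL/6J mice aged 10 to 16 weeks, although the strain is written C57BL/7J for the peptide samples. The dose and duration of the peptide treatment are not stated in the labels. CAM and M-CSF rest on 1 library each, so no value of theirs carries an SD.

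As background, the RING finger of a TRIM protein passes ubiquitin from a carrier enzyme to a target, and the C-terminal domain, often a PRY-SPRY domain, selects that target. Many members take part in antiviral defence, by binding viral capsids or by tagging the sensors and adaptors that lead to type I interferon, and many are themselves induced by interferon. In mouse, the Trim30 genes and the relatives of primate TRIM5 form a cluster of near copies on chromosome 7.

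The libraries held totals of 10334062 to 12842750 estimated counts, and 3 counts, the floor used here for detection, correspond to 0.195 to 0.325 CPM (counts scaled to a common, TMM-adjusted library size). All 9 macrophage markers, Csf1r and Lyz2 among them, stood at 1 CPM or more in every library. Cd68 was only just above that level in CAM, at 1.19 CPM, against 39.0 and 32.8 CPM in peptide-treated CAM and 13.4 CPM in M-CSF. The summed level of the 9 markers was 5948 and 5115 CPM in peptide-treated CAM, 7930 CPM in CAM and 22687 CPM in M-CSF, where Lyz2 alone gave 20873 CPM. Without Lyz2 M-CSF was the lowest library, at 1814 CPM against 3109 and 2744 CPM in peptide-treated CAM and 3374 CPM in CAM. B cell markers summed to 1.29 and 2.16 CPM in peptide-treated CAM and 2.38 CPM in CAM, against 112.7 CPM in M-CSF, where Ighm alone gave 110.3 CPM. Platelet markers summed to 13.4 and 11.6 CPM in peptide-treated CAM, 5.41 CPM in CAM and 77.4 CPM in M-CSF. Dendritic cell markers summed to 8.26 and 9.64 CPM in peptide-treated CAM, 26.7 CPM in CAM and 7.45 CPM in M-CSF. T and NK cell markers summed to 6.54 and 6.57 CPM in peptide-treated CAM, 9.96 CPM in CAM and 19.5 CPM in M-CSF. The part of these cell types in the results below was not tested, and in bulk RNA fewer cells of a type and less RNA per cell cannot be told apart. The number of TRIM members above 0 was 55 and 54 in peptide-treated CAM, 49 in CAM and 58 in M-CSF. Over the whole table, 16748 and 17037 genes were above 0 in peptide-treated CAM, 14847 in CAM and 17548 in M-CSF. CAM was thus the lowest library and M-CSF the highest in both counts. Because a 0 may stand for an estimate that failed, such a gene is described only as listed at 0.

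TRIM transcripts summed to a higher level in the activated libraries. The 67 members summed to 3976 and 3908 CPM in peptide-treated CAM and 3421 CPM in CAM, against 1574 CPM in M-CSF. Trim30a and Trim25 together made up 55.7% and 51.6% of that sum in peptide-treated CAM, 53.5% in CAM and 35.2% in M-CSF. Per kilobase of the longest annotated transcript, the order of levels in peptide-treated CAM was Trim30a (366 and 337.2 CPM per kb), Trim30c (189.6 and 190.1), Trim25 (149.1 and 132.9), Trim30b (60.4 and 76.0) and Trim34a (42.8 and 47.9), and none of these neighbours overlapped between the 2 libraries. In CAM it was Trim30a at 306.1, Trim30c at 178.2, Trim25 at 121.1, Trim30b at 35.8 and Trim12a at 32.0 CPM per kb. In M-CSF it was Trim25 at 68.0, Trim30a at 46.2, Trim8 at 32.0, Trim28 at 28.3 and Trim26 at 21.1 CPM per kb. With 1 library each, the neighbours in CAM and in M-CSF have no spread to set them against.

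Of the 67 members, 52 had enough counts to be tested with edgeR's quasi-likelihood F test over all 14104 tested genes, and a member is called here when its Benjamini-Hochberg adjusted p is below 0.05. The spread comes from the pair of peptide libraries alone, and the lone libraries are assumed to vary like them. Between peptide-treated CAM and CAM, 21 of the 52 were called, 15 higher and 6 lower, beside 37.7% of all tested genes (20.6% higher and 17.1% lower), so the share of 40.4% lies near the background. Between CAM and M-CSF, 23 were called, 12 higher and 11 lower (44.2%), beside 44.4% of all tested genes (21.4% higher and 23.0% lower). Between peptide-treated CAM and M-CSF, 21 were called, 16 higher and 5 lower (40.4%), beside 41.2% of all tested genes (22.1% higher and 19.0% lower). At least 2-fold apart were 23, 26 and 26 members in these comparisons, beside 36.9%, 47.7% and 38.5% of all tested genes. The median log2 fold changes over the tested members were 0.08, 0.27 and 0.16 in these comparisons, against 0.05, -0.07 and -0.08 over all tested genes. With the members listed at 0 in CAM set at their bound, the median for CAM against M-CSF was 0.39. That median leaves out Trim72, which lay below the floor in both libraries. Its removal, not the bounds, moved the median. The 3 comparisons share libraries and are not independent of each other.

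The direction of the calls against M-CSF depended on scaling. With library size in place of TMM, 8 members were higher and 15 lower in CAM than in M-CSF, and 12 were higher and 9 lower in peptide-treated CAM than in M-CSF. That scaling moved the median of all tested genes by -0.48 on the log2 scale for CAM against M-CSF and by -0.39 for peptide-treated CAM against M-CSF. DESeq2's Wald test called 9 members between peptide-treated CAM and CAM and 14 between CAM and M-CSF.

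The interferon-linked members carried most of the higher calls of activated cells against M-CSF. Their list was drawn up with earlier results of these data known. It takes in the chromosome 7 cluster, whose near copies are counted as separate members, so the counts below are not independent. Of the 17 tested among 18 listed, 9 were higher and 1 lower in CAM than in M-CSF, with a median log2 fold change of 1.02, and 11 were higher and 1 lower in peptide-treated CAM than in M-CSF, with a median of 1.72. Calls in either direction were 58.8% and 70.6% of them, beside 44.4% and 41.2% of all tested genes. Between peptide-treated CAM and CAM, 4 were higher and 2 lower, with a median of 0.09. That share of 35.3% lies near the 37.7% of all tested genes. The 35 other tested members had 3 higher and 10 lower in CAM than in M-CSF, with a median of -0.21. These are 37.1% of them, beside 44.4% of all tested genes. Between peptide-treated CAM and CAM they had 11 higher and 4 lower, 42.9% beside 37.7%. With library size in place of TMM, the interferon-linked members had 7 higher and 1 lower in CAM than in M-CSF and 9 higher and 1 lower in peptide-treated CAM than in M-CSF, and the 35 others had 1 higher and 14 lower in CAM than in M-CSF.

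**Figure D1:**
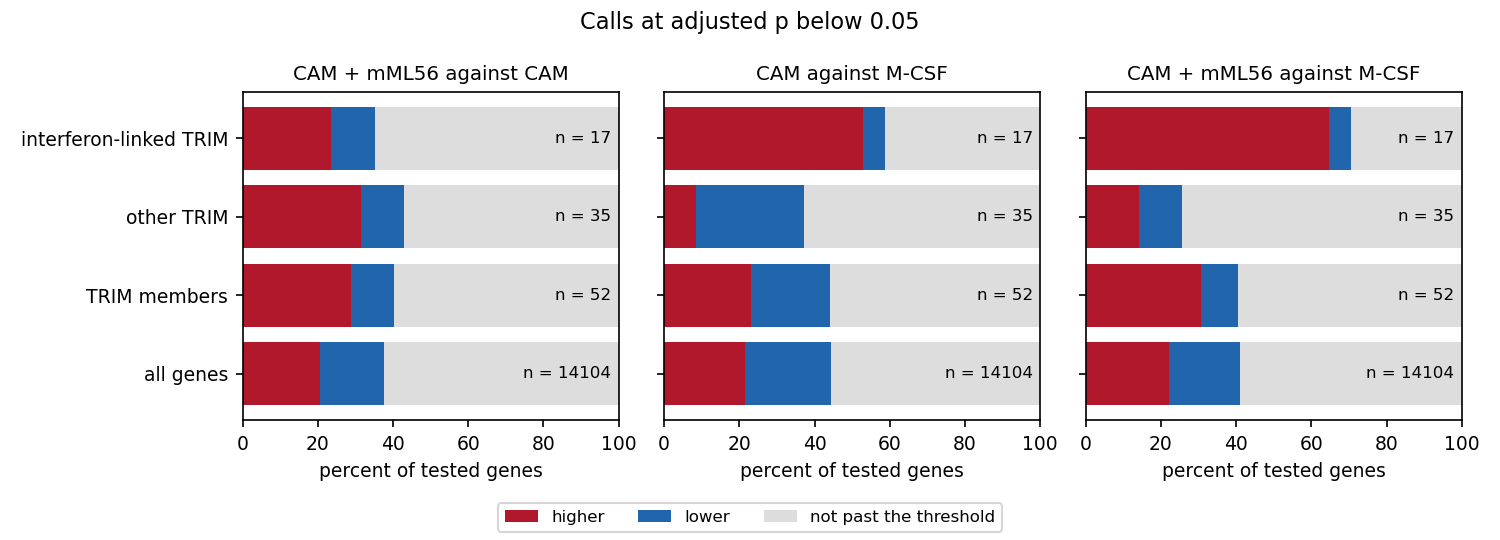
Percent of tested genes called higher or lower at an adjusted p below 0.05 in each comparison, for the interferon-linked TRIM members, the other TRIM members, all tested TRIM members and all tested genes. All tested members lie close to all genes, while 52.9% of the interferon-linked members and 21.4% of all genes were called higher in CAM than in M-CSF.

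Trim30a, which in mouse cells lowers NF-κB signalling after Toll-like receptor stimulation (ENSMUSG00000030921, mm10 chromosome 7, 104409025 to 104465193), had 1380 and 1272 CPM in peptide-treated CAM, 1154 CPM in CAM and 174.2 CPM in M-CSF. All 3 activated libraries lay far above M-CSF. The log2 fold change was 2.73 for CAM against M-CSF (SE 0.227, edgeR adjusted p = 6.38e-07) and 0.20 for peptide-treated CAM against CAM (SE 0.185, edgeR adjusted p = 0.419). Its neighbour Trim30c had 325.4 and 326.2 CPM in peptide-treated CAM, 305.8 CPM in CAM and 8.23 CPM in M-CSF. The peptide pair was nearly level with CAM, and the log2 fold change of 5.21 for CAM against M-CSF (SE 0.235, edgeR adjusted p = 2.9e-09) exceeded that of Trim30a. Trim30b had 258.8 and 325.8 CPM in peptide-treated CAM, 153.5 CPM in CAM and 8.95 CPM in M-CSF. Both peptide libraries lay above CAM, with a log2 fold change of 0.93 (SE 0.188, edgeR adjusted p = 0.00207), and CAM lay above M-CSF by 4.10 (SE 0.25, edgeR adjusted p = 3.71e-08). Trim30d, the remaining copy, reached only 0.86 and 1.41 CPM in peptide-treated CAM, 1.73 CPM in CAM and 0.259 CPM in M-CSF, and no comparison called it.

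The promoters of 2 of these near copies show how alike the upstream sequence can be while the levels differ. Promoter windows from RefSeq (GRCm38.p6, 250 bases before to 50 after a transcription start) were found for 52 of the 67 members. Trim30a and Trim30d were identical at 90.8% of the 250 upstream bases, against 54.0% for Trim30a and Trim30c and 51.6% for Trim30a and Trim30b. The Trim30b window starts 11238 bases from the annotated start of its gene, so its value does not describe the sequence before that start. The alignment allowed gaps, and no value for unrelated sequence was computed to set the 2 lower shares against. The 120 bases before the start are shown for the first pair, on the minus strand at chr7:104465194-104465313 for Trim30a and chr7:104507850-104507969 for Trim30d, with the match to the core of the interferon-stimulated response element (ISRE) in capitals.
Trim30a: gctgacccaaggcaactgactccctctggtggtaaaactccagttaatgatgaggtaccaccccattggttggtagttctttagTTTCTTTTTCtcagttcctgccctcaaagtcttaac
Trim30d: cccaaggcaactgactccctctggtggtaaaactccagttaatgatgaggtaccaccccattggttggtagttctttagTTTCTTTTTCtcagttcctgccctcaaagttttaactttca

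The ISRE core, the DNA element bound by the interferon-activated factor ISGF3 and by IRF proteins, was searched on both strands as GAAA, any 2 bases, then GAAA. It occurred in 9 of the 52 members with a window (17.3%) and in 3.99% of all 27025 genes with one. These members were Trim12a, Trim12c, Trim2, Trim21, Trim26, Trim30a, Trim30d, Trim34a and Trim5. They are not independent, because Trim5, Trim12a and Trim12c have nearly the same site, and so do Trim30a and Trim30d. The share among members thus counts near copies of a sequence more than once. The sites below, 30 bases each with the match in capitals, are shown for members that a comparison called (Trim12a, Trim12c, Trim34a and Trim21) and for 2 that none called (Trim5 and Trim26). They lie on the minus strand of chromosome 7 for Trim5 (chr7:104288136-104288165), Trim12a (chr7:104315466-104315495), Trim12c (chr7:104353359-104353388) and Trim21 (chr7:102565447-102565476), on its plus strand for Trim34a (chr7:104244457-104244486), and on the plus strand of chromosome 17 for Trim26 (chr17:36836979-36837008).
Trim5: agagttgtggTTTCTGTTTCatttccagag
Trim12a: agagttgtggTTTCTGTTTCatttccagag
Trim12c: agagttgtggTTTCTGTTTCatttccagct
Trim34a: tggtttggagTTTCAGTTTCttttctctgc
Trim21: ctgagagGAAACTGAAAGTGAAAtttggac
Trim26: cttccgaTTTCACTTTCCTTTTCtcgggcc
Trim5 and Trim12a hold the same 30 bases, although CAM exceeded M-CSF for Trim12a and no comparison called Trim5. The GAS element, searched as TTCNNNGAA, occurred in 6 of the 52 members (11.5%) and in 9.55% of all genes, and Trim30c held one at chr7:104400821-104400850 on the minus strand.
Trim30c: cgtgactaaaTTCTTAGAAgcttagtgact
A match is a description of letters in a window and does not show that a factor binds there.

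**Figure D2:**
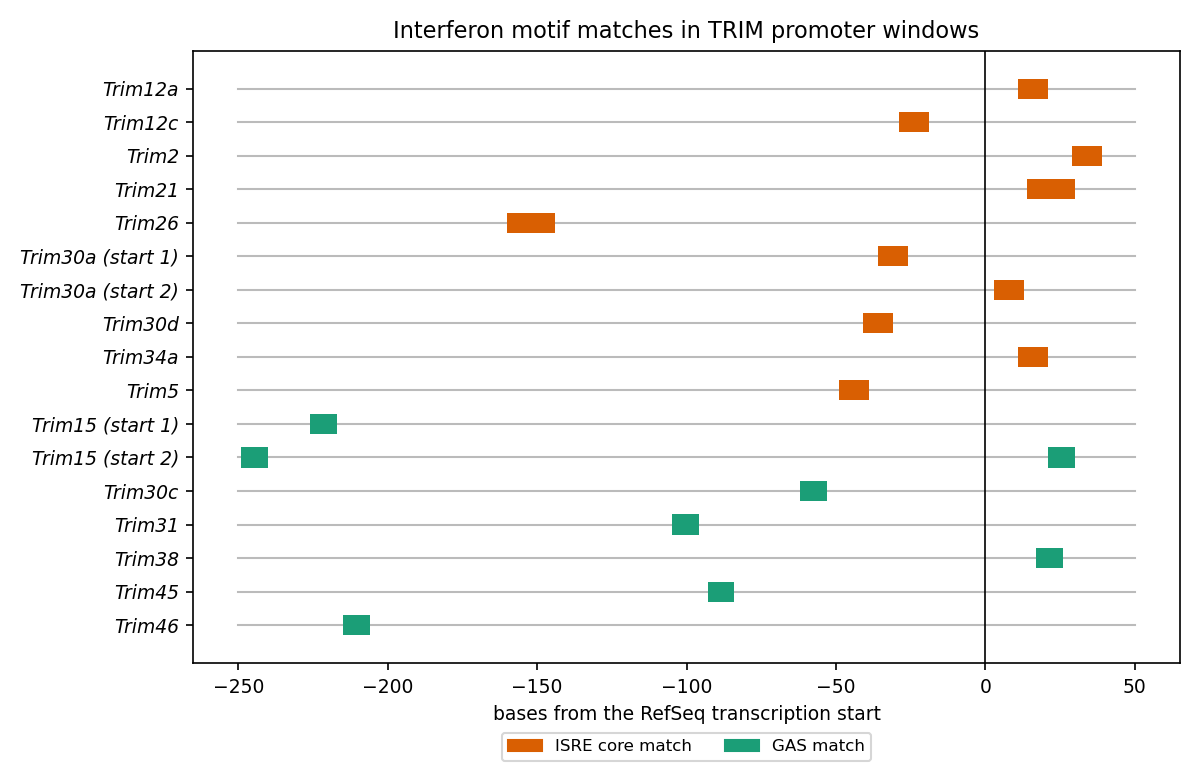
Position of each ISRE core and GAS match in the promoter windows of the TRIM members that hold one, in bases from the RefSeq transcription start, with 1 line per start site. ISRE matches lie between -160 and 29 bases at their first base, and most are within 50 bases of the start.

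The TRIM5 relatives in the same cluster share sequence, which limits how their counts can be told apart. Of the 31-base words in their transcripts, 48.1% in Trim12c, 53.3% in Trim5, 68.5% in Trim34a and 69.0% in Trim34b also occur in transcripts of another gene, against 11.9% in Trim30a, 5.69% in Trim30c and 4.6% in Trim30b. Trim12c, a mouse relative of primate TRIM5, had 19.1 and 16.7 CPM in peptide-treated CAM, 2.06 CPM in CAM and 1.30 CPM in M-CSF. Both peptide libraries stood above the others, with a log2 fold change against CAM of 3.11 (SE 0.384, edgeR adjusted p = 6.65e-05). Summed with Trim5 and Trim12a before the fit, a step added after the values were seen, the difference was 0.10 (SE 0.164, edgeR adjusted p = 0.655), at 153.0 and 164.9 CPM in peptide-treated CAM, 148.2 CPM in CAM and 84.1 CPM in M-CSF. Of that sum, Trim12a alone gave 119.5 CPM in CAM, while Trim12c gave 2.06 CPM. A rise of the size seen for Trim12c would change such a sum little, so the sum does not decide whether that rise is real.

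Trim12a had 109.7 and 124.2 CPM in peptide-treated CAM, 119.5 CPM in CAM and 58.8 CPM in M-CSF. CAM lay within the peptide pair and above M-CSF, by a log2 fold change of 1.02 (SE 0.197, edgeR adjusted p = 0.000917). Trim5, whose primate counterpart blocks retroviral capsids, had 24.3 and 23.9 CPM in peptide-treated CAM, 26.5 CPM in CAM and 24.0 CPM in M-CSF, and no comparison called it. Trim34a, whose primate counterpart also binds capsids, had 110.9 and 124.1 CPM in peptide-treated CAM, 65.0 CPM in CAM and 35.3 CPM in M-CSF. The groups did not overlap, and its log2 fold change was 0.85 for peptide-treated CAM against CAM (SE 0.176, edgeR adjusted p = 0.00231) and 0.88 for CAM against M-CSF (SE 0.2, edgeR adjusted p = 0.0031). Summed with Trim34b, it gave 0.86 and 0.88. Trim6, which builds free ubiquitin chains that activate the kinase IKKε, had 24.9 and 23.6 CPM in peptide-treated CAM, 11.8 CPM in CAM and 7.33 CPM in M-CSF. The peptide libraries were the highest, with a log2 fold change against CAM of 1.04 (SE 0.263, edgeR adjusted p = 0.00803), and the step between CAM and M-CSF was not called (edgeR adjusted p = 0.0818).

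**Figure D3:**
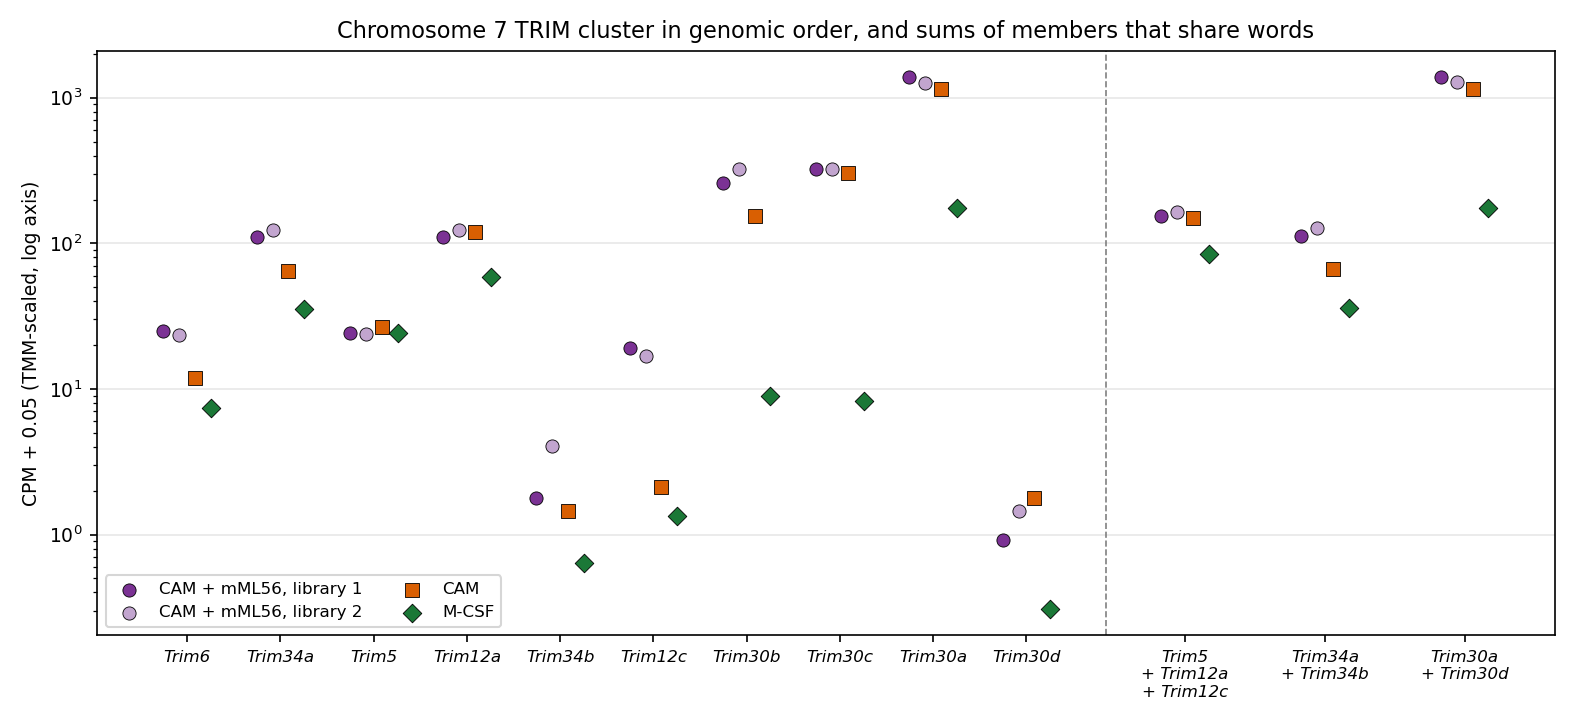
TMM-scaled CPM plus 0.05 on a log axis for the 10 members of the chromosome 7 cluster in genomic order, and on the right for sums of members that share words, with 1 point per library. Trim30b, Trim30c and Trim30a lie far above M-CSF in the activated libraries. Trim12a dominates the sum of Trim5, Trim12a and Trim12c. That sum therefore cannot show whether the gap between peptide-treated CAM and CAM at Trim12c is real.

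Taking the 10 cluster members as a group, 4 were higher and 0 lower in peptide-treated CAM than in CAM, 5 higher and 0 lower in CAM than in M-CSF, and 8 higher and 0 lower in peptide-treated CAM than in M-CSF. Over all tested genes, 37.7%, 44.4% and 41.2% were called in either direction, so the 4 of 10 called between peptide-treated CAM and CAM lie near the background. The median log2 fold changes were 0.53, 1.14 and 2.18. Their summed level was 2256 and 2241 CPM in peptide-treated CAM, 1842 CPM in CAM and 319.0 CPM in M-CSF. Trim34b was called only in peptide-treated CAM against M-CSF (log2 fold change 2.27, edgeR adjusted p = 0.0298), at 1.72 and 3.99 CPM in peptide-treated CAM, 1.41 CPM in CAM and 0.583 CPM in M-CSF.

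Outside the cluster, the ligases that act on RNA sensing and its adaptors were higher in CAM than in M-CSF for Trim25, Trim56 and Trim21. Trim25, the ligase that activates the RNA sensor RIG-I (ENSMUSG00000000275, chromosome 11, 88999376 to 89020293), had 833.5 and 743 CPM in peptide-treated CAM, 677.1 CPM in CAM and 379.9 CPM in M-CSF. It was higher in CAM than in M-CSF by a log2 fold change of 0.83 (SE 0.208, edgeR adjusted p = 0.00551), and peptide-treated CAM against CAM gave 0.22 (edgeR adjusted p = 0.361). Trim56, an RNA-binding ligase linked to the STING adaptor (chromosome 5, 137105644 to 137116209), had 205.7 and 189.2 CPM in peptide-treated CAM, 282 CPM in CAM and 94 CPM in M-CSF. CAM was the highest library, at a log2 fold change of 1.58 against M-CSF (SE 0.194, edgeR adjusted p = 2.17e-05), and peptide-treated CAM was lower than CAM at -0.51 (SE 0.161, edgeR adjusted p = 0.0237). Without a filter on low counts the adjusted p for peptide-treated CAM against CAM was 0.057 by edgeR, and with an offset for gene length and GC content 0.15. Trim21, the cytosolic receptor for antibody-coated viruses, had 4.99 and 4.74 CPM in peptide-treated CAM, 11 CPM in CAM and 1.62 CPM in M-CSF. It followed the order of Trim56, with log2 fold changes of -1.18 (SE 0.367, edgeR adjusted p = 0.0229) for peptide-treated CAM against CAM and 2.76 (SE 0.477, edgeR adjusted p = 0.000403) for CAM against M-CSF.

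Other members linked to antiviral signalling moved differently. Trim65, a ligase of the RNA sensor MDA5, had 29.1 and 30.3 CPM in peptide-treated CAM, 36.1 CPM in CAM and 68.6 CPM in M-CSF. M-CSF was the highest library, and the log2 fold change was -0.93 for CAM against M-CSF (SE 0.219, edgeR adjusted p = 0.00389). Its exons overlap those of Trim47 on the same strand, and 7.27% of the words of Trim47 are shared. Trim47 had 3.61 and 4.41 CPM in peptide-treated CAM, 3.14 CPM in CAM and 42.8 CPM in M-CSF, so all activated libraries lay far below M-CSF, at a log2 fold change of -3.77 for CAM against M-CSF (SE 0.358, edgeR adjusted p = 2.25e-06). With the counts of Trim47 and Trim65 summed, CAM against M-CSF gave -1.51 (edgeR adjusted p = 5.94e-05). Trim26, which targets IRF3 in the nucleus, had 75.6 and 116.5 CPM in peptide-treated CAM, 91.2 CPM in CAM and 91.7 CPM in M-CSF, and Trim14, an adaptor of the MAVS pathway, had 23.1 and 19.9 CPM in peptide-treated CAM, 15.9 CPM in CAM and 17.2 CPM in M-CSF. Neither passed the test in any comparison. Trim69 was called only in CAM against M-CSF, at 1.03 and 0.333 CPM in peptide-treated CAM, 2.82 CPM in CAM and 0.0648 CPM in M-CSF (log2 fold change 5.23, edgeR adjusted p = 0.00653), and M-CSF lies below the floor of 3 counts, so this fold change is not a bound.

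Among the PHD-bromodomain members, which act as chromatin corepressors, 2 of the 3 tested were higher in peptide-treated CAM than in CAM, beside 20.6% of all tested genes called higher. Trim28 (KAP1), the corepressor of KRAB zinc finger proteins (chromosome 7, 12999114 to 13031035), had 86.4 and 80.8 CPM in peptide-treated CAM, 50.6 CPM in CAM and 92.0 CPM in M-CSF. CAM was the lowest library, with log2 fold changes of 0.72 (SE 0.175, edgeR adjusted p = 0.00609) for peptide-treated CAM against CAM and -0.86 (SE 0.196, edgeR adjusted p = 0.003) for CAM against M-CSF. The offset ended both calls of Trim28, at 0.36 (edgeR adjusted p = 0.268) and -0.55 (edgeR adjusted p = 0.105). Trim24, a coregulator of nuclear receptors, had 51.3 and 54.6 CPM in peptide-treated CAM, 28.5 CPM in CAM and 32.7 CPM in M-CSF. The peptide libraries stood above the other 2, by 0.89 against CAM (SE 0.2, edgeR adjusted p = 0.00381). Trim33, which binds SMAD2 and SMAD3, had 40 and 31.7 CPM in peptide-treated CAM, 51.8 CPM in CAM and 48.9 CPM in M-CSF, and its difference of -0.53 between peptide-treated CAM and CAM did not pass the test (edgeR adjusted p = 0.0539).

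The NHL-repeat member Trim3, a ligase studied mostly in neurons (chromosome 7, 105604463 to 105633571), had 34.1 and 36.4 CPM in peptide-treated CAM, 4.44 CPM in CAM and 33.1 CPM in M-CSF. CAM stood apart from the other 3 libraries, with a log2 fold change of 2.99 for peptide-treated CAM against CAM (SE 0.277, edgeR adjusted p = 8.35e-06) and -2.90 for CAM against M-CSF (SE 0.294, edgeR adjusted p = 4.23e-06). Peptide-treated CAM against M-CSF gave 0.09 (edgeR adjusted p = 0.769). Trim32, the ligase mutated in a human limb-girdle muscular dystrophy, was listed at 0 in CAM, with 0.602 and 9.64 CPM in peptide-treated CAM and 1.30 CPM in M-CSF. The peptide libraries lay far apart, and without library 2 the peptide value is the 0.602 CPM of library 1. Trim32 was called higher in peptide-treated CAM than in CAM (edgeR adjusted p = 0.0144), and a test without either library could not be made.

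Other members separated peptide-treated CAM from CAM. Trim11, a ligase that helps clear misfolded proteins, had 42.7 and 55.0 CPM in peptide-treated CAM, 18.0 CPM in CAM and 42.1 CPM in M-CSF. CAM was the lowest library, with log2 fold changes of 1.44 (SE 0.232, edgeR adjusted p = 0.000451) and -1.23 (SE 0.255, edgeR adjusted p = 0.00161) for peptide-treated CAM against CAM and CAM against M-CSF. Trim7, which binds glycogenin, had 9.81 and 10.6 CPM in peptide-treated CAM, 1.41 CPM in CAM and 1.75 CPM in M-CSF. Its exons overlap gene models on the opposite strand. Both peptide libraries lay above the other 2, by 2.85 against CAM (SE 0.464, edgeR adjusted p = 0.000486). Trim8, a regulator of TAK1 and of SOCS1, had 152.4 and 146.8 CPM in peptide-treated CAM, 99.0 CPM in CAM and 114.6 CPM in M-CSF, a log2 fold change of 0.60 against CAM (SE 0.167, edgeR adjusted p = 0.014). The length and GC offset ended that call, at 0.11 (edgeR adjusted p = 0.773). Trim27 was listed at 0 in CAM, with 2.15 and 1.5 CPM in peptide-treated CAM and 2.27 CPM in M-CSF. The edgeR test called it higher in peptide-treated CAM than in CAM and lower in CAM than in M-CSF, and both calls rest on that 0.

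Trim44, Trim36 and Trim37 were lower in peptide-treated CAM than in CAM. Trim44, a member without a RING finger (chromosome 2, 102300119 to 102407828), had 37.8 and 30.4 CPM in peptide-treated CAM, 82.1 CPM in CAM and 89.6 CPM in M-CSF. Both peptide libraries lay below the other 2, by -1.27 against CAM (SE 0.183, edgeR adjusted p = 0.000201) and by -1.39 against M-CSF (SE 0.18, edgeR adjusted p = 3.37e-05). Trim36, which binds microtubules, had 3.01 and 3.66 CPM in peptide-treated CAM, 9.96 CPM in CAM and 7.20 CPM in M-CSF, and Trim37, mutated in human mulibrey nanism, had 2.15 and 2.16 CPM in peptide-treated CAM, 5.96 CPM in CAM and 4.54 CPM in M-CSF. Their log2 fold changes against CAM were -1.58 (SE 0.369, edgeR adjusted p = 0.00507) and -1.46 (edgeR adjusted p = 0.0216). DESeq2's Wald test did not call Trim36 or Trim37, nor Trim21, Trim24, Trim27, Trim28, Trim56, Trim6 or Trim8 in that comparison, and library size in place of TMM also ended the calls of Trim21 and Trim37.

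By domain, 10 of the 32 tested PRY-SPRY members were higher and 1 lower in peptide-treated CAM than in CAM, and 9 were higher and 8 lower in CAM than in M-CSF. These are 34.4% and 53.1% of them, beside 37.7% and 44.4% of all tested genes. Of the 5 tested COS-box members, which bind microtubules, 0 were higher and 1 lower in each comparison, a share of 20.0% beside 37.7% to 44.4% of all tested genes. Both transmembrane members were tested, and of these Trim13 was called higher in CAM than in M-CSF. The 5 members lower in peptide-treated CAM than in M-CSF were Trim36, Trim44, Trim47, Trim65 and Trim68, at -1.11, -1.39, -3.41, -1.21 and -2.64. DESeq2's Wald test did not call Trim36 in that comparison (-1.08, adjusted p = 0.416).

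The remaining called members with at least 5 CPM differed between CAM and M-CSF. Trim39 had 15.2 and 21.2 CPM in peptide-treated CAM, 26.7 CPM in CAM and 12.4 CPM in M-CSF, Trim13, a ligase of the endoplasmic reticulum, had 12.4 and 14.2 CPM in peptide-treated CAM, 19.6 CPM in CAM and 10.2 CPM in M-CSF, and Trim52 had 5.33 and 6.98 CPM in peptide-treated CAM, 10.2 CPM in CAM and 1.43 CPM in M-CSF. CAM was the highest library for each, with log2 fold changes against M-CSF of 1.11 (edgeR adjusted p = 0.0107), 0.94 (edgeR adjusted p = 0.0241) and 2.83 (edgeR adjusted p = 0.000398). Trim68 had 1.29 and 2.08 CPM in peptide-treated CAM, 2.71 CPM in CAM and 10.6 CPM in M-CSF, and its log2 fold change for CAM against M-CSF was -1.96 (edgeR adjusted p = 0.00879). Of the words of Trim13, 28.7% also occur in the gene model Gm9359. Calls on Trim13, Trim39, Trim65 and Trim68 were lost with DESeq2's Wald test, those on Trim13, Trim25, Trim34a and Trim39 with library size in place of TMM, and those on Trim11, Trim13, Trim28, Trim34a and Trim65 with the length and GC offset.

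**Figure D4:**
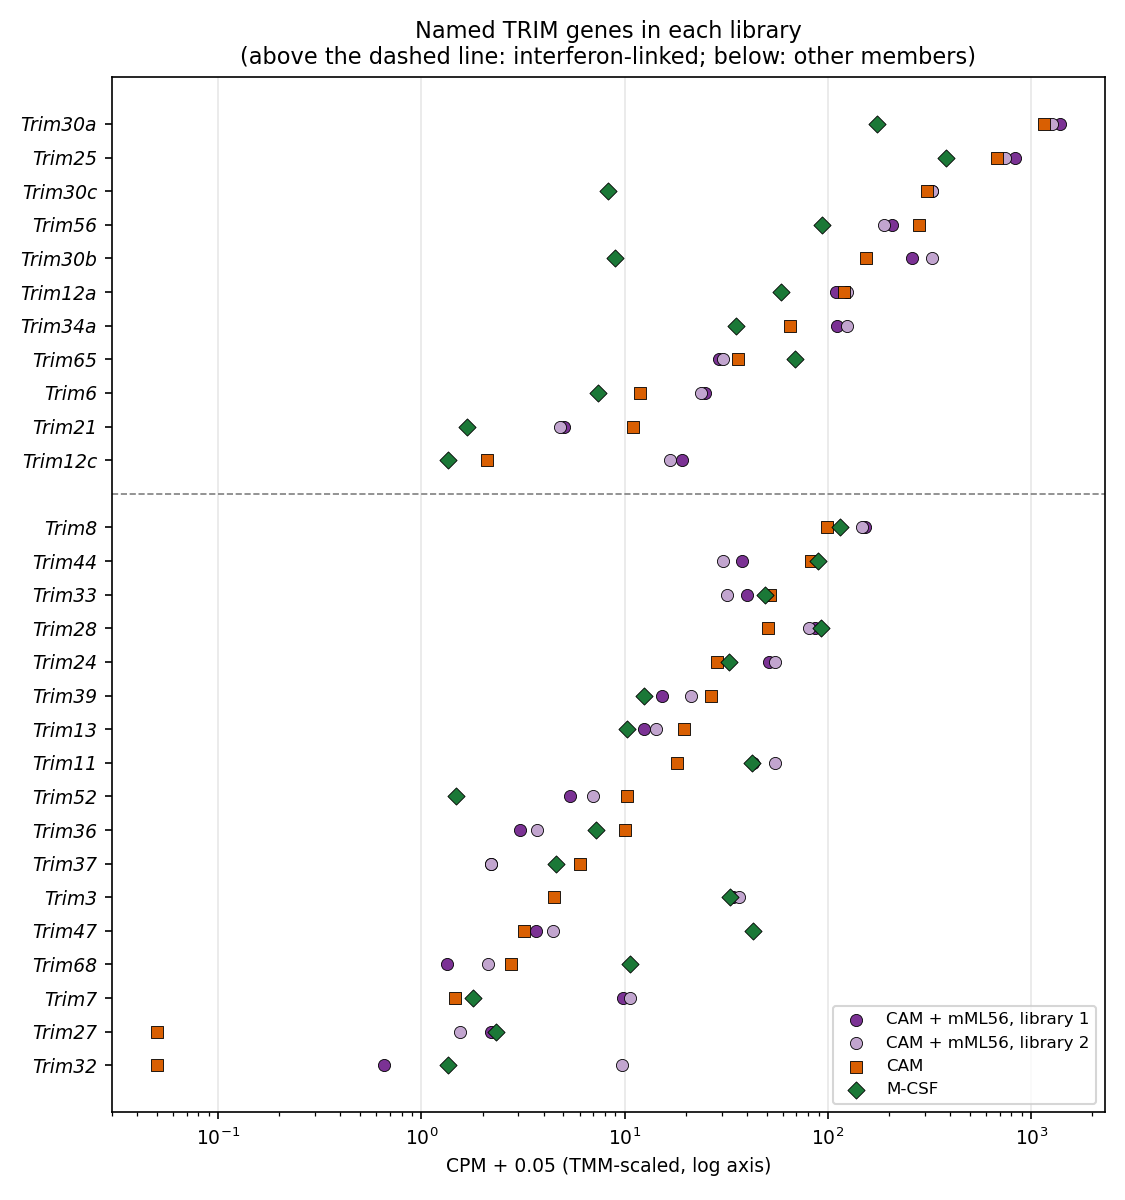
TMM-scaled CPM plus 0.05 of the named TRIM members in each library on a log axis, with 1 point per library. Trim3, Trim11 and Trim28 are lowest in CAM, while Trim44 is lowest in both peptide libraries and Trim47 is highest in M-CSF.

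**Figure D5:**
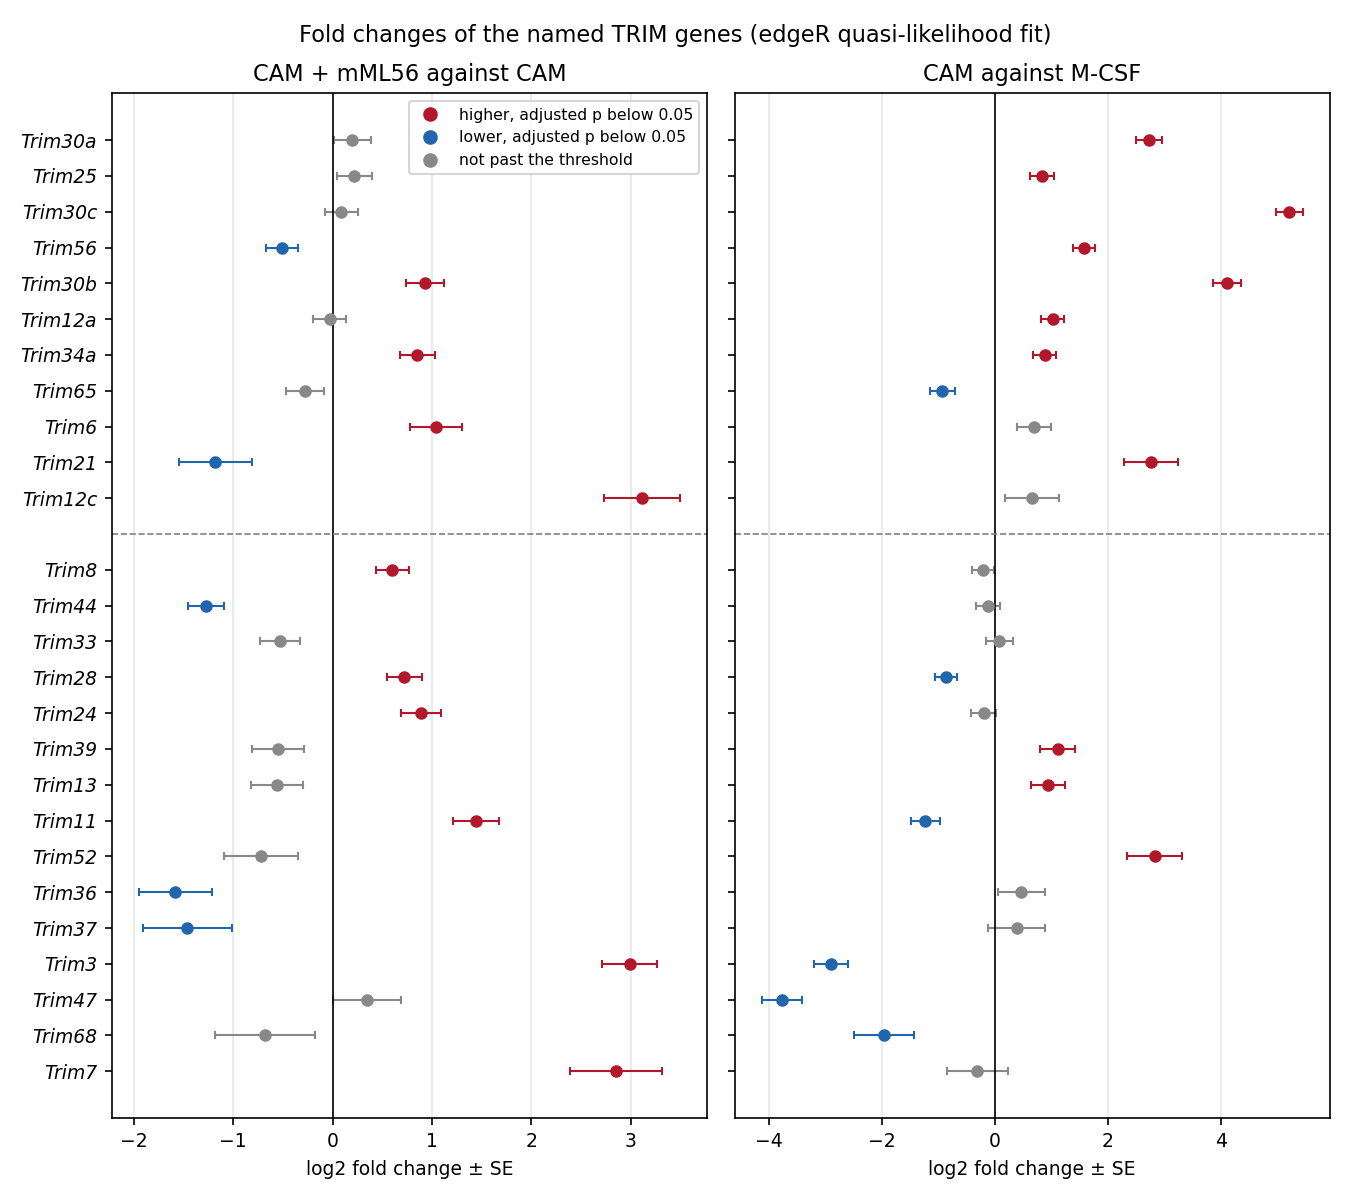
Log2 fold change and its standard error for the named members in peptide-treated CAM against CAM and in CAM against M-CSF, coloured by the edgeR call, without Trim27 and Trim32, which are listed at 0 in CAM. Trim12c, Trim3 and Trim7 lie farthest right in the first panel, at 3.11, 2.99 and 2.85.

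Called members below 5 CPM had low counts, and some of them were at or below the floor in CAM or M-CSF. Trim23 and Trim45 were above it in every library. Between peptide-treated CAM and CAM, Trim16 (log2 fold change 2.89), which acts in autophagy of damaged lysosomes, and Trim41 (2.87), whose exons overlap Rack1 on the opposite strand, were higher and Trim23 (-2.24), which carries an ARF domain, was lower. Trim72, a muscle membrane repair protein, was also called higher, at 2.49 and 2.91 CPM in peptide-treated CAM, listed at 0 in CAM and 0.0648 CPM in M-CSF. Between CAM and M-CSF, Trim16, Trim41 and Trim63 were lower, at -3.68, -3.59 and -2.44, and Trim17, listed at 0 in CAM against 3.31 CPM in M-CSF, was called lower. Trim45 was called only in peptide-treated CAM against M-CSF (1.55, edgeR adjusted p = 0.0412). Of the called members, 3 in peptide-treated CAM against CAM and 2 in CAM against M-CSF were listed at 0 in CAM. Tested members that no comparison called and that have not been named were Trim2, Trim9, Trim15, Trim35, Trim43a, Trim43b, Trim43c, Trim46, Trim59, Trim62 and Trim67, with 14.1 CPM in any library as their highest value, in Trim62.

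The other 15 members were not tested. Trim31, Trim40, Trim42, Trim54, Trim55, Trim60, Trim61 and Trim80 were listed at 0 in all 4 libraries. Trim29, Trim38, Trim50, Trim58, Trim66, Trim71 and Trim75 reached at most 0.582 CPM, in Trim50. Between the peptide libraries, 7 of the 52 tested members lay at least 2-fold apart, and of these only Trim32 reached 5 CPM. Among all 10053 genes at 5 CPM or more, 3.83% lay that far apart.

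The genes that work with TRIM proteins were drawn up as lists of ubiquitin and its carrier enzymes, antiviral signalling proteins, corepressor partners and TRIM-motif genes with other symbols. Of the 49 tested, 10 were higher and 10 lower in peptide-treated CAM than in CAM (5 and 11 with the length and GC offset, and 5 and 4 with DESeq2's Wald test), 26 higher and 4 lower in CAM than in M-CSF, and 29 higher and 4 lower in peptide-treated CAM than in M-CSF. These are 40.8%, 61.2% and 67.3% of them, beside 37.7%, 44.4% and 41.2% of all tested genes, so the first lies near the background. Each fold change given below passed the edgeR test. With library size in place of TMM, CAM against M-CSF gave 17 higher and 10 lower, and peptide-treated CAM against M-CSF gave 18 higher and 5 lower. Ubb, which encodes a ubiquitin precursor, had 3169 and 2810 CPM in peptide-treated CAM, 1421 CPM in CAM and 958.8 CPM in M-CSF. It was higher in peptide-treated CAM than in CAM, at a log2 fold change of 1.07. Ube2v2, a partner of the E2 enzyme Ube2n, was lower at -1.65, and Uba6, an E1 enzyme, at -1.15.

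Mavs, the adaptor downstream of RIG-I and MDA5, had 72.1 and 54.2 CPM in peptide-treated CAM, 5.85 CPM in CAM and 42.5 CPM in M-CSF. CAM stood far below the other libraries, at 3.43 for peptide-treated CAM against CAM and -2.86 for CAM against M-CSF. Tmem173, which encodes STING, gave 1.17 and -0.77 in the same comparisons. Irf7, the transcription factor that amplifies interferon, had 1279 and 1213 CPM in peptide-treated CAM, 579.6 CPM in CAM and 13.7 CPM in M-CSF, at 1.10 and 5.40. Ifih1, which encodes MDA5, had 148.8 and 156 CPM in peptide-treated CAM, 277.3 CPM in CAM and 27.3 CPM in M-CSF, at -0.86 and 3.34. Nlrp3, the inflammasome sensor, was lower in peptide-treated CAM than in CAM at -1.88. Of the TRIM-motif genes with other symbols, Mid1 gave -0.89 and 2.62 and Mefv, which encodes pyrin, gave -1.23 and 4.93 in the same comparisons. Smad4, a partner of Trim33, had 13.9 and 12.3 CPM in peptide-treated CAM, 28.7 CPM in CAM and 2.98 CPM in M-CSF, at -1.13 and 3.26.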

How the data were processed

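The deposited values are estimated counts for each gene, many of them fractional and with no scaling. Per the submitters' processing notes, kallisto, StringTie and the build mm10 were used. No source used here names the kallisto version, the annotation or the strand setting. Counts were rounded, the 14104 genes kept by filterByExpr were scaled by TMM (factors 0.906 and 0.993 in the peptide libraries, 0.894 in CAM and 1.24 in M-CSF), and tested with edgeR 4.0.16 on 4 libraries in 3 groups, with 1 residual degree of freedom from the peptide pair and Benjamini-Hochberg adjustment over all tested genes. No label ties the libraries to separate cultures, so p-values reflect only how far the 2 peptide libraries differ, and that spread may be technical. Values are listed for members called with at least 5 CPM in their highest group, and for Trim21, Trim25, Trim27, Trim28 and Trim33. The members, lists and rules were chosen with earlier results of these data known. Trim5 and some other members were named beyond that rule, after their values were seen. Words of 31 bases were taken from GENCODE M21 transcripts. Alternatives were other scalings, DESeq2, no filter, an offset for length and GC content, each peptide library left out, and a replicate block.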

Additional observations from a re-analysis of the deposited data

How the results depend on the processing

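DESeq2's Wald test called 9 TRIM members between peptide-treated CAM and CAM (8 higher, 1 lower) in place of 21, 14 between CAM and M-CSF (9 higher, 5 lower) in place of 23, and 9 partner genes between peptide-treated CAM and CAM (5 higher, 4 lower) in place of 20. The cause was not tested. The other total counts of calls stayed within 1.5 times the reported ones under the alternatives run, although library size in place of TMM changed the balance of higher and lower calls against M-CSF. Of 366 values of called members recomputed with a test, 332 kept the call and 34 lost it, and none changed sign. Of 41 values of members not called, 2 gained a call. Of 177 values without a test, 10 moved by more than their standard error. Members not called changed sign in 4 values. Trim25 in peptide-treated CAM against CAM gave -0.01 with the length and GC offset, in place of 0.22. Trim33 in CAM against M-CSF gave -0.40 with library size, -0.28 with the offset and -0.26 with the replicate block, in place of 0.08. Members at 5 CPM or more, a filter added after seeing the data, gave 16, 17 and 18 calls of 33 for peptide-treated CAM against CAM, CAM against M-CSF and peptide-treated CAM against M-CSF. The share of calls among all genes at that level was not computed. These counts therefore have no like background, and the shares over all tested genes include genes with low counts. Leaving out each peptide library gave 22 to 25, 26 to 27 and 25 to 27 members at least 2-fold apart in these comparisons. CAM against M-CSF uses no peptide library, so there the omission could act only through scaling and tests nothing else. Such values are among the 177 without a test. No paired analysis with a test was possible because a replicate block on the column numbers leaves no residual degrees of freedom. The CAM column carries the number 1 and the M-CSF column the number 2, and no label explains these numbers. A difference between CAM and M-CSF therefore cannot be told apart from a difference between the numbers. With the block, 23, 30 and 25 members lay at least 2-fold apart. Of the 10 moved values, 5 in CAM against M-CSF and 1 in peptide-treated CAM against CAM came from the block. All 21 values in peptide-treated CAM against M-CSF stayed within their standard error with it. Members listed at 0 or near 3 counts have fold changes that depend on the prior count.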
